A study of Mus musculus with 24 samples.

Results

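The *Dlk1*-*Dio3* region of mouse chromosome 12 was followed in nuclear RNA of 4 ES cell lines. The 9 genes described here are *Meg3*, *Rian*, *Mirg*, *Dlk1*, *Rtl1*, *Dio3*, *Begain*, Gm26945 and Gm37899, out of 47937 genes that both count tables hold. They were selected on measured values, since the list was made because the counts of *Meg3*, *Rian* and *Mirg* fall in *Mettl3* KO cells, so the levels of these genes in *Mettl3* KO and RBC cells are given as a description and without a test. WT26 is a wild-type ES cell line of 129/Sv x C57Bl6 background and is the control of the *Mettl14* KO line, 1 CRISPR/Cas9 clone (A10) derived from it with a frame shift in *Mettl14*. RBC is an ES cell line of the same background that carries Rosa26 BirA-V5 and a Cre-ERT2 recombinase, and it is the control of the *Mettl3* KO line, 1 clone (2c4d) derived from RBC that carries the same alleles. All lines were grown with serum replacement and LIF on gelatin. Each line was sequenced in 2 biological replicates by RNA-seq, and in 2 by MeRIP-seq, where fragmented RNA was sequenced before (input) and after (IP) pull-down with an antibody against N6-methyladenosine (m6A). The effect of a knockout cannot be told apart from the history of its clone, and since these are bulk samples, fewer cells of a type and less RNA per cell cannot be told apart either.

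Imprinted genes are expressed from only the maternal or only the paternal copy. In the *Dlk1*-*Dio3* region the maternal copy makes long noncoding RNAs, namely *Meg3*, *Rian*, which hosts many C/D box snoRNAs, and *Mirg*, which hosts many miRNAs. The paternal copy makes the protein-coding genes *Dlk1*, *Rtl1* and *Dio3*. A differentially methylated region upstream of *Meg3* controls the imprints, and in cultured ES cells the maternal RNAs are known to be lost in some clones. The complex of Mettl3, its catalytic subunit, and Mettl14 deposits m6A on nascent RNA. Counts per gene do not separate the maternal from the paternal copy.

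On GRCm38 the genes lie in the order *Begain* (chr12:109032187-109068217, minus strand), *Dlk1* (chr12:109452823-109463336), *Meg3* (chr12:109541001-109571726), *Rtl1* (chr12:109589193-109600330, minus strand), *Rian* (chr12:109603940-109661716), Gm26945 (chr12:109640341-109642351), Gm37899 (chr12:109668869-109677585), *Mirg* (chr12:109729764-109749460) and *Dio3* (chr12:110279068-110281097), on the plus strand where none is given. Gm26945 is a lincRNA gene inside *Rian* that shares no exon base with it, and Gm37899 is a transcript that awaits experimental proof, 3′ of *Rian*. Of the 122 annotated genes from *Begain* to *Dio3*, the tables hold 107, among them 69 miRNA genes and 23 snoRNA genes. The RefSeq sequences given here are those of GRCm38.p6.

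The start of *Meg3* is shown because *Meg3* is the first of the maternal RNAs on this strand. In the 300 bases around it (chr12:109540746-109541045, plus strand), the capitals mark TGACGTCA, the full cAMP response element.
*Meg3* promoter: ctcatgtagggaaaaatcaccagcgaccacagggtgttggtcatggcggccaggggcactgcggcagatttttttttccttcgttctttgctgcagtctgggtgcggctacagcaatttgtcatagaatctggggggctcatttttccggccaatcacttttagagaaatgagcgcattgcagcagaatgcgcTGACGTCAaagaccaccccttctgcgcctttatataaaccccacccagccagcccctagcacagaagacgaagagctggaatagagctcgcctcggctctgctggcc
This window holds 1 copy of TGACGTCA, which was found on either strand in 1.79% of 32851 mouse promoters of the same length, and 13 CpG dinucleotides, against a median of 7.0. It was the only one of the promoters of the 6 genes matched (*Begain*, *Dlk1*, *Meg3*, *Rian*, *Mirg* and *Dio3*) with this motif, and no match says only that these letters are not in the window. The *Rian* window had 0 CpG, those of *Dlk1* and *Mirg* had 9 and 10, that of *Dio3* had 25, and the 5 windows of *Begain* had 34 to 46. Another *Meg3* window (chr12:109545148-109545447) had 1 CpG and 0 copies of TGACGTCA. The *Mirg* window (chr12:109734731-109735030) lies inside the gene and not at the start given above.

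Examples of the miRNAs of the locus are given in the order of their genes, with the seed (bases 2 to 8) in capitals. Those of Mir433, Mir127 and Mir434 are shown because their genes lie opposite the exon of *Rtl1*, and the others because their short stretches differed in the IP.
miR-540-3p: aGGUCAGAggucgauccugg
miR-3070-2-3p: uGGUGCUAuggucagggguaga
miR-433-3p: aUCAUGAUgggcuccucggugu
miR-127-3p: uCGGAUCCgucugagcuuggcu
miR-434-3p: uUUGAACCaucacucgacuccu
miR-300-3p: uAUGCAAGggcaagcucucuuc
miR-134-5p: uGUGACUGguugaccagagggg
RefSeq placed 113 mature miRNAs from 61 genes in the region, and all 61 genes were matched in the tables. They had 104 different seeds, of which 9 were shared by more than 1 mature miRNA, so most of the cluster does not share a seed.

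In the control line WT26, the noncoding RNAs of the locus stood far above the protein-coding genes. Compared per kilobase of exon, the mean RNA-seq level was 432 normalized counts for *Rian*, 279 for *Mirg*, 224 for *Meg3*, 165 for Gm26945 and 114 for Gm37899. It was 11.2 for *Dio3*, 7.70 for *Begain*, 1.004 for *Dlk1* and 0.169 for *Rtl1*. The 2 libraries of neighbours in this order did not overlap, the closest being *Dio3* (8.99 and 13.4) and *Begain* (6.58 and 8.82). In RBC the order was the same, with overlap between *Meg3* (298 and 321) and Gm26945 (287 and 310).

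In *Mettl3* KO cells the 5 plus-strand noncoding RNAs were nearly gone from the RNA-seq libraries. *Meg3* had 5814 and 5391 normalized counts in RBC but 30.4 and 27.2 in *Mettl3* KO cells. *Rian* had 11712 and 12184 in RBC but 78.3 and 87.6 in *Mettl3* KO cells. *Mirg*, the miRNA host at the far end, had 2883 and 2975 in RBC but 21.7 and 18.1 in *Mettl3* KO cells. Thus 0.514% of the RBC level of *Meg3*, 0.694% of *Rian* and 0.681% of *Mirg* was left. Gm37899 went from 1617 and 1535 normalized counts to 8.70 and 9.07, or 0.563% of RBC. Gm26945 went from 577 and 624 to 1.74 and 4.03 (2 and 4 reads), or 0.48%. The log2 differences of these 5 RNAs lay close together, between -7.68 for Gm26945 (standard error 0.502) and -7.17 for *Rian* (standard error 0.0795), with -7.59 for *Meg3* (standard error 0.12).

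The other genes of the region were also lower in *Mettl3* KO than in RBC cells, but at low counts and by far less. *Dlk1*, which encodes a transmembrane protein related to Notch ligands, had 19.5 and 10.8 normalized counts in RBC but 3.48 and 5.04 in *Mettl3* KO cells (28% of RBC). *Dio3*, the deiodinase that inactivates thyroid hormone, had 20.7 and 26.6 against 8.70 and 9.07 (37.5%). *Begain*, a gene of a synaptic protein at the outer edge of the region, had 35.6 and 32.5 against 11.3 and 19.1 (44.7%). *Rtl1*, a retrotransposon-derived gene of placenta and muscle, had 0 to 2 reads in all 8 RNA-seq libraries and did not pass the filter on low counts. All 8 genes tested had a log2 difference below -1, which was true of 8.27% of the 17021 tested genes, and this count is a part of how the genes were chosen. Their median log2 difference was -7.18, against -0.002 over all tested genes.

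The MeRIP input libraries gave a like picture. *Meg3* had 6051 and 5201 normalized counts in RBC input and 24.5 and 14.5 in *Mettl3* KO input (0.346%). *Rian* had 6081 and 6493 against 42.7 and 20.9 (0.506%), and *Mirg* 1440.1 and 1464 against 13.6 and 3.21 (0.58%). Gm26945 had 532 reads in the RBC and 1 read in the *Mettl3* KO input libraries, a ratio of 545 after scaling that rests on that 1 read. All 9 genes had a log2 difference below -1, as did 6.74% of the 22621 features tested, and their median was -7.25.

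**Figure D1:**
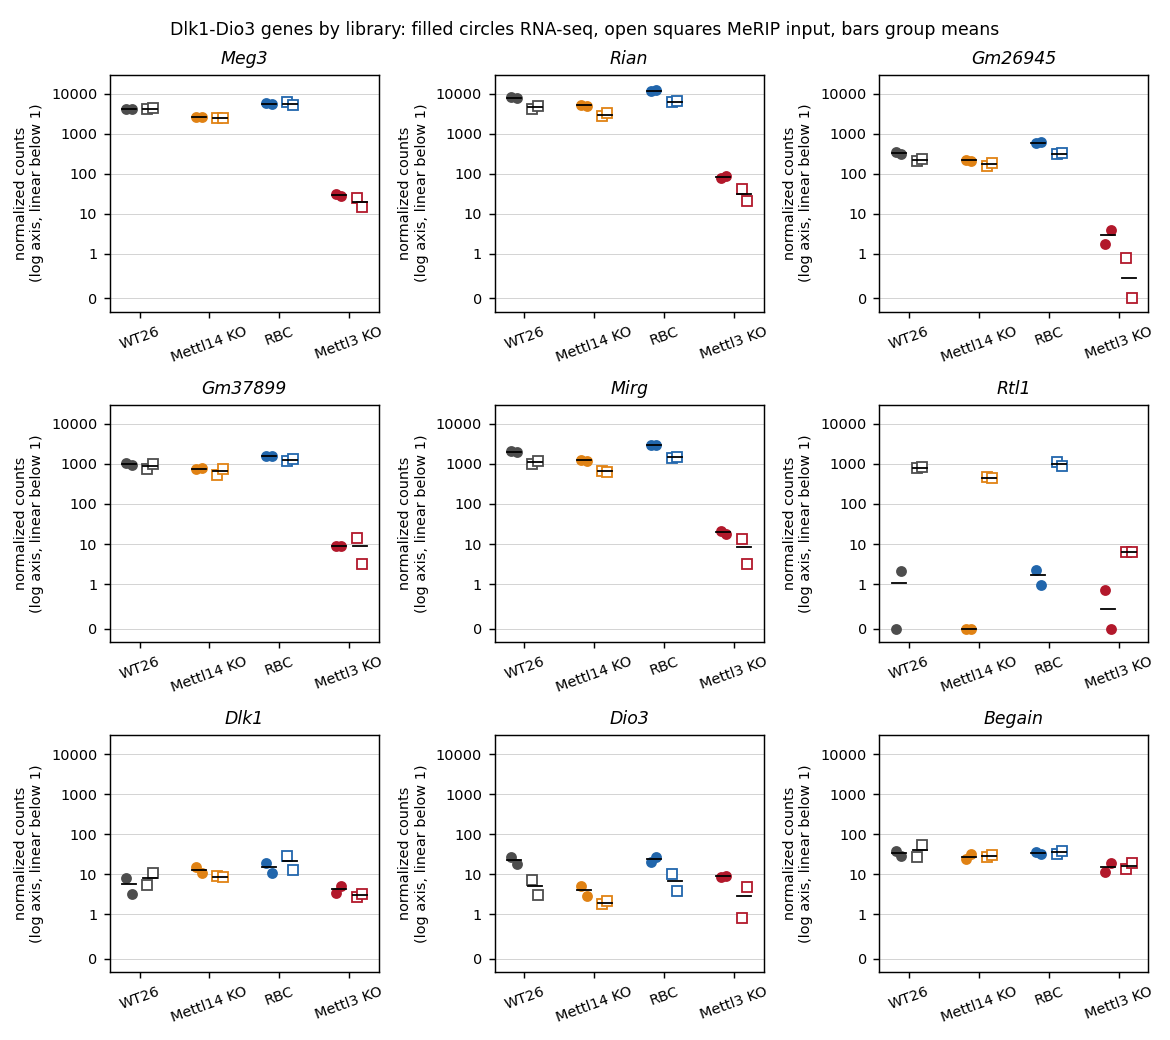
Normalized counts of the 9 genes in each library, on a log axis that is linear below 1, with filled circles for RNA-seq, open squares for MeRIP input, bars for the group means and 1 panel per gene. In RNA-seq the 5 plus-strand noncoding RNAs sit between 213 and 12184 in WT26, *Mettl14* KO and RBC cells and between 1.74 and 87.6 in *Mettl3* KO cells, while *Rtl1* is low in RNA-seq and high in input.

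*Rtl1* differed most between the assays. Its normalized counts in input libraries were 771 and 822 for WT26, 1103 and 901 for RBC, 460.0 and 439.9 for *Mettl14* KO cells, but 6.36 and 6.42 for *Mettl3* KO cells, where RNA-seq had at most 2 reads. Its exon on the minus strand holds the miRNA genes Mir433, Mir127 and Mir434 on the opposite strand, as part of the maternal transcript. Gm26906, a lincRNA gene antisense to *Meg3*, differed in the same way, with 338 and 246 reads in WT26 input and a mean of 0.125 reads over the RNA-seq libraries. The strand setting of the counting is not given in the sources used here, and in the MeRIP-seq table reads of *Rtl1* and of its antisense transcript cannot be told apart, so the *Rtl1* values of that table are given as uncertain.

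The small RNA genes were followed as short stretches of the locus, since these libraries count fragments of nuclear RNA and not mature miRNAs. The RNA-seq reads of the 69 miRNA genes summed to 895 and 780 for WT26, 581 and 588 for *Mettl14* KO, 965 and 1231 for RBC and 6 and 13 for *Mettl3* KO cells. The 23 snoRNA genes had 367 and 309, 201 and 254, 458 and 540, and 8 and 3 reads in the same order. All 39 miRNA genes and 13 snoRNA genes tested were below -1 on the log2 scale in *Mettl3* KO against RBC cells, with medians of -7.02 and -7.24, against 8.27% of all tested genes below -1. In *Mettl3* KO cells 0 of these genes had more than 3 reads in any library. The tested stretches thus passed the filter on low counts only through the other lines. A lower value in *Mettl3* KO cells was therefore close to fixed in advance for them. Beside them, 15 genes that flank the region passed the filter. The flanking genes had log2 differences between -0.48 and 1.34 with a median of -0.04, and 0 of them fell below -1. The 1 above 1 was *Mok*, a kinase gene, with 193 and 188 normalized counts in RBC but 512 and 451 in *Mettl3* KO cells.

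Compared with WT26, RBC had more of the noncoding RNAs. The RNA-seq log2 differences of RBC against WT26 were 0.47 for *Meg3*, 0.60 for *Rian*, 0.53 for *Mirg*, 0.67 for Gm37899 and 0.85 for Gm26945, and RBC libraries lay above WT26 libraries in each of these 5, as in 34.1% of all tested genes. They were 1.33 for *Dlk1*, 0.05 for *Dio3* and -0.01 for *Begain*. Past a log2 difference of 1 was 1 of 8 genes, *Dlk1*, against 5.86% of all tested genes. These 2 control lines are therefore not at 1 common level, and each knockout was set only against its own control.

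In *Mettl14* KO cells the same RNAs were lower than in WT26, but most of their RNA remained. *Meg3* had 4039.5 and 4049.7 normalized counts in WT26 and 2556 and 2593 in *Mettl14* KO cells, so that 63.7% was left (log2 difference -0.65, standard error 0.0485, adjusted p = 4.4e-09 in edgeR). *Rian* had 8085 and 7662.5 in WT26 and 5188 and 5015 in *Mettl14* KO cells (64.8%, log2 difference -0.63, standard error 0.053, adjusted p = 2.32e-08). *Mirg* had 2088 and 1979 against 1264 and 1216 (61%, log2 difference -0.71, standard error 0.0507, adjusted p = 2.28e-09). In each of these 3 RNAs both *Mettl14* KO libraries lay below both WT26 libraries, as in 38.7% of all tested genes, and the differences exceeded the spread between replicates. Gm26945 fell from 354 and 309 to 224 and 213 (log2 difference -0.60, adjusted p = 7.31e-05), and Gm37899 from 1029 and 951 to 731 and 780.3 (log2 difference -0.39, adjusted p = 7.03e-05).

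Of the protein-coding genes, *Dio3* was the 1 that passed the test in *Mettl14* KO cells. *Dio3* fell from 27.1 and 18.3 normalized counts in WT26 to 5.01 and 2.92 (17.5% left, log2 difference -2.50, standard error 0.549, adjusted p = 0.000208), and it was the 1 of the 9 genes that passed both the adjusted p of 0.05 and a log2 change of 1. It rests on 30 and 17 reads against 5 and 3. *Dlk1* had 8.14 and 3.22 in WT26 and 15.0 and 10.7 in *Mettl14* KO cells, which did not pass the test (log2 difference 1.11, 95% interval -0.0486 to 2.27, adjusted p = 0.0858). *Begain* had 38.9 and 29.0 against 24.0 and 31.2, and these overlapped (log2 difference -0.31, 95% interval -0.909 to 0.292, adjusted p = 0.38). By the adjusted p alone, 6 of the 8 tested genes were lower, against 27% of all tested genes. With the log2 change of 1 as well, 1 of 8 was lower and 0 of 8 higher, against 6.57% and 7.95% of all tested genes. The median log2 difference of the 8 genes was -0.62, against 0 over all tested genes. Of the small RNA genes, 4 of 39 miRNA genes and 0 of 13 snoRNA genes were called lower, with medians of -0.38 and -0.54.

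**Figure D2:**
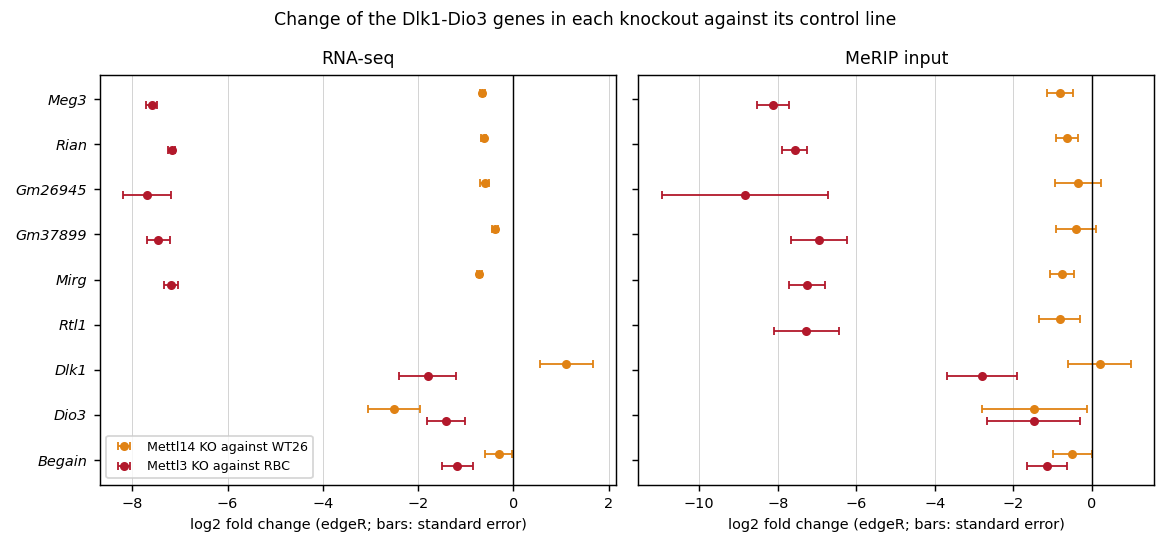
Log2 fold change of each gene against its control line, with bars for the standard error, in RNA-seq (left, 8 genes) and MeRIP input (right, 9 genes). In RNA-seq the noncoding RNAs lie between -0.71 and -0.39 for *Mettl14* KO and between -7.68 and -7.17 for *Mettl3* KO, and *Dlk1* lies at 1.11 and -1.80.

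Input libraries showed the same direction for these RNAs, which did not pass the test when fitted with all MeRIP libraries. With only the 4 compared libraries in the edgeR fit, the adjusted p fell to 0.008 for *Meg3*, 0.0275 for *Rian* and 0.0178 for *Mirg*, with log2 differences of -0.83, -0.65 and -0.78. That fit also called 632 of 19344 features, against 90 of 22621 with all MeRIP libraries, so the gain was not particular to these RNAs. The chi-square over its degrees of freedom between replicates was 24.1 to 216 in MeRIP-seq, against 2.95 to 39.8 in RNA-seq. *Meg3* had 4043 and 4406 normalized counts in WT26 input and 2402 and 2399 in *Mettl14* KO input (log2 difference -0.82, 95% interval -1.52 to -0.113, adjusted p = 0.375 over all features). *Rian* had 4229 and 4974 against 2729 and 3207 (log2 difference -0.63, adjusted p = 0.438), and *Mirg* 1024 and 1209.8 against 678 and 636 (log2 difference -0.76, adjusted p = 0.389). For these 3 RNAs the libraries of the 2 lines did not overlap, which was so, in the same direction, for 24.3% of all features. In edgeR 0 of 9 genes were called lower, as were 0.274% of all features, and the median of the 9 genes was -0.63. DESeq2 also called 0 of them, and an unadjusted p under 0.05 was given in edgeR to 3, *Meg3*, *Rian* and *Mirg*. *Dio3* had 9 and 2 reads in WT26 input and 2 and 1 in *Mettl14* KO input, a ratio of 3.02 with a 95% counting interval of 0.797 to 16.8.

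The question put to the IP libraries was whether the RNAs of the locus were enriched by the m6A antibody, read as higher normalized counts in IP than in input. The scaling puts the median feature near 0, at 0.017 in WT26, 0.021 in RBC and 0.015 in *Mettl14* KO cells. An RNA is thus compared with the typical feature, and one that is not enriched by this measure can still carry m6A. *Meg3* was not enriched in any line. It had 4043 and 4406 normalized counts in input and 3917 and 3279 in IP of WT26 (log2 IP over input -0.23, 95% interval -0.932 to 0.47, adjusted p = 0.599). In RBC it had 6051 and 5201 in input and 6268 and 4289 in IP (log2 IP over input -0.09, 95% interval -0.793 to 0.609, adjusted p = 0.849). In *Mettl14* KO cells it had 2402 and 2399 in input and 2595 and 1773 in IP (log2 IP over input -0.14, 95% interval -0.839 to 0.567, adjusted p = 0.778). Input and IP overlapped in RBC and *Mettl14* KO cells, and the upper ends of the intervals lay below a log2 enrichment of 1 over the whole gene in all 3 lines. With library size scaling, which raised the median of all features by 0.454, 0.492 and 0.451, *Meg3* came to 0.20, 0.36 and 0.30. A modified site in 1 part of this long transcript would be diluted in a count over the whole gene.

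*Rian* and *Mirg* were likewise not enriched. *Rian* had 3042 and 3537 normalized counts in WT26 IP, 5125 and 4358 in RBC IP and 2172 and 2185 in *Mettl14* KO IP. Its log2 IP over input was -0.48, -0.41 and -0.45 (adjusted p = 0.189, 0.276 and 0.24). *Mirg* had 749.5 and 653 in WT26 IP, 889.9 and 809.7 in RBC IP and 391 and 423 in *Mettl14* KO IP. Its log2 IP over input was -0.67, -0.77 and -0.69 in the same order (adjusted p = 0.109, 0.0755 and 0.115), while DESeq2's Wald test gave adjusted p = 0.017, 0.00595 and 0.0165 for differences of nearly the same size. Both RNAs thus had a log2 IP over input below 0 in these 3 lines without being called by edgeR, except that *Rian* in RBC came to 0.042 with library size scaling.

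Gm26945, *Rtl1* and Gm37899 were below input by the test, at an adjusted p of 0.05 and a log2 difference below -1. Gm26945 had 204 and 232 normalized counts in input and 57.2 and 30.6 in IP of WT26 (log2 IP over input -2.29, adjusted p = 0.0159), and its values were -2.00 in RBC and -2.22 in *Mettl14* KO cells (adjusted p = 0.0281 and 0.0243). *Rtl1*, with the strand limit given above, had 771 and 822 in input and 331 and 124 in IP of WT26 (log2 IP over input -1.80, adjusted p = 0.0223), and its values were -1.60 and -1.55 in RBC and *Mettl14* KO cells (adjusted p = 0.0383 and 0.0495). Gm37899 had 745 and 989 in input and 425 and 224 in IP of WT26 (log2 IP over input -1.41, adjusted p = 0.0478), with -1.15 and -1.19 in the other lines (adjusted p = 0.0978 and 0.0972). In each of these lines IP replicate 2 was lower than IP replicate 1 for all 3 entries, as in *Mettl14* KO cells, where Gm26945 had 57.7 and 10.9. Each of these calls was lost on leaving out either input library, or IP replicate 2, of its line. Enriched calls over all features fell in the same fits, so the losses say little about these entries alone. Over all alternatives log2 IP over input in WT26 lay between -2.83 and -1.85 for Gm26945, -2.68 and -1.26 for *Rtl1*, and -1.95 and -0.96 for Gm37899. Library size scaling took the adjusted p in edgeR past 0.05 for *Rtl1* in the 3 lines (0.0535, 0.0936 and 0.121), Gm26945 in RBC (0.0528) and Gm37899 in WT26 (0.14). In all, 3 of 9 genes were below input in WT26, 2 of 9 in RBC and 2 of 9 in *Mettl14* KO cells, against 13.5%, 11.1% and 9.91% of all features.

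*Dio3* was the 1 of the 9 genes called enriched, in WT26. It had 9 and 2 reads in input and 54 and 40 in IP of WT26 (log2 IP over input 2.61, 95% interval 0.743 to 4.47, adjusted p = 0.03). In RBC it had 9 and 3 in input and 74 and 12 in IP (log2 IP over input 1.89, adjusted p = 0.0938), and in *Mettl14* KO cells 2 and 1 in input and 5 and 13 in IP (log2 IP over input 2.24, adjusted p = 0.156). The call in WT26 was lost without input replicate 1, input replicate 2 or IP replicate 2. Enriched calls over all features fell in the same fits, so the loss says little about *Dio3* alone. Over all alternatives its log2 IP over input in WT26 lay between 2.23 and 3.42. With input and IP paired by replicate, *Dio3* was also called in RBC by edgeR (log2 IP over input 1.85, adjusted p = 0.038). In *Mettl14* KO cells it was called without IP replicate 1 (3.16), where calls over all features rose. Counting enriched genes, 1 of 9 was called in WT26 and 0 of 9 in RBC, *Mettl14* KO and *Mettl3* KO cells, against 14.5%, 13.4%, 11.9% and 2.54% of all features. DESeq2 gave the same counts, and among genes with more signal in IP an unadjusted p under 0.05 was given in edgeR to *Dio3* alone, in WT26 (0.00762) and in RBC (0.0371). *Dlk1* and *Begain* passed in no line, with log2 IP over input of -1.46, -1.23 and -0.59 for *Dlk1* and -0.09, 0.37 and 0.03 for *Begain* in WT26, RBC and *Mettl14* KO cells. In *Mettl3* KO cells, where *Meg3* had 27 and 9 reads in input and 53 and 13 in IP, log2 IP over input of the 9 genes ranged from -0.69 to 0.93.

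**Figure D3:**
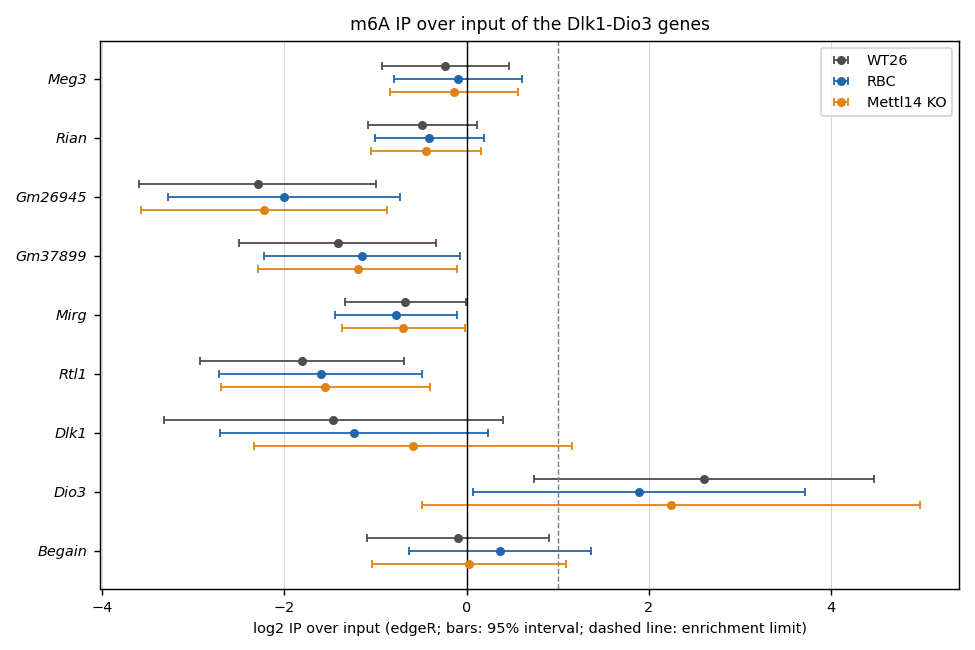
Log2 difference of IP over input for the 9 genes in WT26, RBC and *Mettl14* KO cells, with 95% intervals as bars and a dashed line at the log2 limit of 1 for an enriched gene. *Meg3* lies at -0.23, -0.09 and -0.14, *Dio3* at 2.61, 1.89 and 2.24, and Gm26945 at -2.29, -2.00 and -2.22.

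The enrichment of these RNAs did not differ detectably between a knockout and its control. For *Meg3* the log2 IP over input was 0.10 higher in *Mettl14* KO than in WT26 cells (95% interval -0.897 to 1.09). The difference was 0.04 for *Rian* (95% interval -0.811 to 0.887) and -0.02 for *Mirg* (95% interval -0.972 to 0.929). Among the 9 genes the differences ranged from -0.36 to 0.87 for *Mettl14* KO against WT26, from -1.28 to 2.93 for *Mettl3* KO against RBC, where counts in the knockout are very low, and from -0.71 to 0.46 for RBC against WT26. In edgeR 0 of 9 genes passed in each of the 3, and 0% of all features did. An unadjusted p under 0.05 was given to 126, 787 and 133 features, to none of the 9 genes, and DESeq2 called 1, 0 and 0 features. These tests therefore had little reach, and intervals of about 1 log2 unit on either side are what they allow for the abundant RNAs.

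Read along the locus, the small RNA stretches showed the same low IP. Of the 49 miRNA genes tested, 23 were below input in WT26, 25 in RBC and 14 in *Mettl14* KO cells, with medians of -2.38, -1.96 and -2.29, while the medians over all features were 0.017, 0.021 and 0.015. Of the 22 snoRNA genes tested, 5, 6 and 4 were below input, with medians of -1.37, -1.41 and -0.94. Over all features the shares below input were 13.5%, 11.1% and 9.91%. Mir3070b had 51 and 36 reads in input and 7 and 4 in IP of WT26 (log2 IP over input -3.56, adjusted p = 0.00509). Mir540 had 26 and 14 against 4 and 1 (-3.50, adjusted p = 0.00643), and Mir300 13 and 8 against 1 and 0 (-4.59, adjusted p = 0.00775). The tested miRNA genes include minus-strand entries, such as Gm25750, to which the strand limit given for *Rtl1* applies too. These stretches neighbour each other and share transcripts, so they are not independent of one another.

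**Figure D4:**
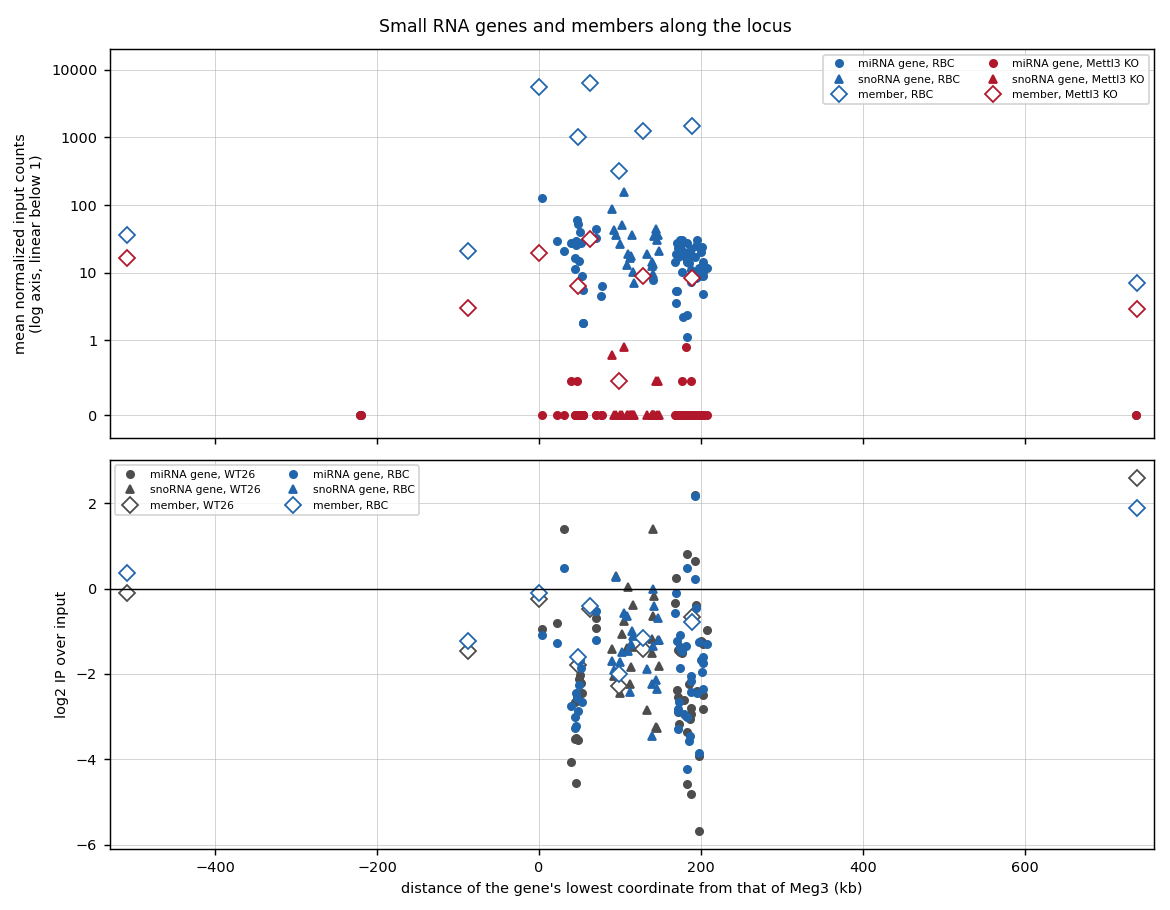
Mean normalized input counts in RBC and *Mettl3* KO cells (top, log axis, linear below 1) and log2 IP over input in WT26 and RBC (bottom) for the miRNA genes (circles), snoRNA genes (triangles) and the 9 genes of the list (diamonds), by distance from *Meg3* in kilobases. In *Mettl3* KO cells the small RNA genes lie below 1 in the top panel, and in the bottom panel most of them lie below 0, with Mir134 at 2.19 in WT26 and 2.17 in RBC.

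Against this background, the stretch of Mir134 was higher in IP. Mir134 lies in an exon of *Mirg* and had 10 and 7 reads in input and 48 and 62 in IP of WT26 (log2 IP over input 2.19, adjusted p = 0.0181). In RBC it had 8 and 9 in input and 53 and 65 in IP (2.17, adjusted p = 0.0217), and in *Mettl14* KO cells 10 and 3 against 25 and 25 (1.61, adjusted p = 0.0829). Mir134 was the only miRNA gene of the locus called enriched in WT26 and in RBC, 1 of 49 tested, against 14.5% and 13.4% of all features. *Mirg* as a whole was not called enriched. The alternatives run for the 9 genes were not run for the calls of Mir134 and the other small RNA genes. How far these calls depend on 1 library is thus not known. The stretch is shown because it was called. It had 0 reads in the RNA-seq libraries, as had Mir770 and Mir1906-1, which lie in exons of *Meg3*. How reads shared by 2 genes were counted is not given, so the 0 does not show that this part of *Mirg* was missing. In the 300 bases around it (chr12:109734024-109734323, plus strand), the capitals mark the 1 copy of GGACT, the core of the m6A consensus, on the strand of *Mirg*.
Mir134 stretch: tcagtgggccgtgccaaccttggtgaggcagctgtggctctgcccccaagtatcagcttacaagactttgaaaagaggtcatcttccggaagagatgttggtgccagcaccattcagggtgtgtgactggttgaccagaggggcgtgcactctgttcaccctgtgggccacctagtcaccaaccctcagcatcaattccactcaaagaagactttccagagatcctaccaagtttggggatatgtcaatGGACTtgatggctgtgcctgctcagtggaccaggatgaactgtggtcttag
Gm26906, which lies antisense within *Meg3*, was also called enriched in 1 line. It had 338 and 246 reads in input and 676 and 797 in IP of WT26 (log2 IP over input 0.80, adjusted p = 0.0791), and the call was in RBC, with 351 and 277 against 1223 and 1058 (1.20, adjusted p = 0.0217). In this table its reads cannot be told apart from those of the part of *Meg3* that it overlaps.

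GGACT was counted in the longest transcript of each gene. *Mirg* had 6 copies (1.57 per kilobase), *Dio3* 3 (1.48), *Begain* 4 (1.22) and *Meg3* 16 (1.1), and these stood above the median of 1.01 per kilobase over 15467 genes. *Dlk1* had 3 (0.645), *Rtl1* 4 (0.629), Gm37899 5 (0.574), *Rian* 2 (0.247) and Gm26945 0. Over the 9 genes the Spearman correlation of GGACT per kilobase with log2 IP over input was 0.633 in WT26, 0.633 in RBC and 0.6 in *Mettl14* KO cells, and that of the GC content of the transcript was 0.4, 0.4 and 0.467. Over the 71 tested small RNA stretches with 250 bases added on each side, the Spearman correlation of the number of GGACT with log2 IP over input was -0.0652 in WT26, -0.0129 in RBC and 0.0191 in *Mettl14* KO cells. The 9 genes include *Rtl1*, whose MeRIP reads may not come from the strand on which GGACT was counted, and *Dio3* and *Dlk1*, which had few reads. The genes and stretches share libraries and transcripts, and the values are a description only.

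Likeness to the RNA-seq pattern of *Meg3* over the 8 libraries was measured by Pearson's r of log2 normalized counts, with 11855 genes outside the region ranked. In the locus r was 0.9995 for *Mirg*, 0.9993 for Gm37899, 0.9992 for *Rian* and 0.9941 for Gm26945. *Begain* had 0.887, *Dlk1* 0.593, *Dio3* 0.332 and *Rtl1* 0.262. Outside 1 Mb of the region the highest were, all above Gm26945, *Stat3* (0.9982), *Sohlh2* (0.998), *Dcaf6* (0.9978), *Cxadr* (0.9977) and *Dazl* (0.9977). The 2 *Mettl3* KO libraries lie far below the rest and set most of these values. In size the likeness was small: *Dazl* had a mean of 1072 normalized counts in RBC and 100.5 in *Mettl3* KO cells, and *Stat3* 1781 and 1075.

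Genes known to act on imprints or on DNA methylation were read beside the locus from a list of 17. In *Mettl14* KO cells 2 were called lower and 1 higher, against 6.57% and 7.95% of all tested genes. By the adjusted p alone 13 of 17 were lower, against 27%. *Dnmt3l*, a cofactor of de novo DNA methylation, had 775 and 859.98 normalized counts in WT26 and 191 and 183 in *Mettl14* KO cells (log2 difference -2.12, adjusted p = 6.54e-12). *Tet2*, an enzyme that oxidizes 5-methylcytosine, had 10106 and 9439 against 3311 and 3424 (-1.54, adjusted p = 9.75e-13), and *Dppa3*, which protects the maternal genome from demethylation in the early embryo, had 2.71 and 2.15 against 14.0 and 18.5 (2.67, adjusted p = 0.000441). In *Mettl3* KO against RBC cells *Zfp57*, the zinc finger protein that binds methylated imprint control regions, had 3280.1 and 3384 against 10047 and 10160.0 (log2 difference -1.60). *Dnmt3l* had 303 and 331 against 936 and 809 (-1.46), and *Dppa3* 13.04 and 16.1 against 2.30 and 1.97 (2.70). In that contrast 2 of the 17 were below -1 and 1 was above 1, while 8.27% of all tested genes were below -1. The median log2 difference over the list was -0.37 for *Mettl14* KO and -0.17 for the other knockout. DNA methylation of the locus was not analysed here, and the part of these genes in the levels of *Meg3* was not tested.

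Since *Dlk1* is related to the Notch ligands, the Notch receptors, ligands and targets were read as well. Of 14 genes 9 were tested, and 1 was called lower and 1 higher in *Mettl14* KO cells, against the same 6.57% and 7.95%. The target *Hes1* was lower, with 409 and 426 normalized counts in WT26 and 204 and 189.97 in *Mettl14* KO cells (log2 difference -1.08, adjusted p = 1.56e-07). The ligand *Jag2* was higher, with 98.6 and 132 against 273 and 268 (1.24, adjusted p = 1.81e-07). In *Mettl3* KO cells 0 of the 9 were past a log2 difference of 1, and their median was 0.02.

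The labels and the cell state were checked in the same libraries. RNA-seq libraries held 11321459 to 13743181 reads on genes, input libraries 9394163 to 22366463 and IP libraries 10828364 to 28441282 on genes and repeats. *Mettl14* had 401 and 358 normalized counts in WT26 and 296 and 316 in *Mettl14* KO cells, and *Mettl3* 928 and 979 in RBC against 880.0 and 821 in *Mettl3* KO cells, so RNA of the targeted genes remained, and its level does not check the labels. All 10 ES cell markers had a mean of at least 10 normalized counts in all 4 lines. Their summed level was 42400 to 43300 for WT26, 29500 to 29800 for *Mettl14* KO, 38000 to 38500 for RBC and 23500 to 24000 for *Mettl3* KO cells. These sums weigh the most abundant genes most. In *Mettl14* KO against WT26 cells all 10 were lower, with a median log2 difference of -0.55. In *Mettl3* KO against RBC cells 9 were lower and 1 higher, with a median of -0.38. Of these 10, 2 were below -1, against 8.27% of all tested genes. The summed level of 6 primitive endoderm markers was 55.8 to 56.1, 167 to 173, 126 to 133 and 102 to 125 in the same order. For 5 neuroectoderm markers it was 379 to 437, 451 to 466, 842 to 855 and 944 to 981. For 5 mesoderm markers it was 87.7 to 106, 63.1 to 69.2, 79.9 to 86.2 and 71.5 to 82.6. For 5 trophectoderm markers it was 301 to 320, 369 to 375, 324 to 328 and 366 to 370. For 6 fibroblast markers it was 81.4 to 84.8, 27.3 to 38.1, 103 to 116 and 44.3 to 62.4, with 1, 1, 2 and 3 of them at a mean of at least 10. Within this list *Thy1* had 80.5 and 98.6 in RBC against 10.4 and 19.1 in *Mettl3* KO cells and *Col1a2* 6.90 and 2.96 against 22.6 and 24.2, while *Dcn* was at 0 in all 4 lines. Against WT26, 4 of 4 tested primitive endoderm and 1 of 3 neuroectoderm markers were called higher in *Mettl14* KO cells. Called lower were 1 of 3 mesoderm and 1 of 3 fibroblast markers, and of the trophectoderm markers 0 of 3 were called. The shares over all tested genes were 7.95% higher and 6.57% lower. The part of these marker levels in the changes of the locus was not tested.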

How the data were processed

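RNA-seq (8 libraries) and MeRIP-seq (8 input and 8 IP libraries) of nuclear RNA were analysed. The authors deposited raw read counts, per gene for RNA-seq and per gene and repeat subfamily for MeRIP-seq, without normalization. The submitters' processing notes name cutadapt 1.8.1, STAR 2.6.0c, GRCm38 and DESeq2 1.26.0. The counter and strand setting of the RNA-seq table are not given in the sources used here. For MeRIP-seq, 3 pull-downs were combined per biological replicate. All columns were matched to samples by their labels (0 were left over).

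Counts were scaled with the size factors of DESeq2 1.42.0, which gives normalized counts, and tested in R 4.3.3 with the quasi-likelihood test of edgeR 4.0.16 after filterByExpr, over all libraries of a table, with Benjamini-Hochberg adjustment over 17021 genes (RNA-seq) or 22621 features (MeRIP-seq). Genes were called when the adjusted p did not exceed 0.05 and the log2 fold change was above 1 in size. A difference in enrichment needs the adjusted p only. Standard errors are Wald errors of the fit, and depth sets counting error only. The scripts were tested on simulated data. Figures and sequence counts were made with Python 3.11.15.

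The genes of the region, the lists and the tests were chosen with earlier results of these data known. Named besides the 9 genes are locus genes with a mean of at least 10 reads in a table, list genes called or past the fold, the 5 genes most like *Meg3* (mean of at least 50 normalized counts, over 1 Mb away), and the targeted genes. *Thy1*, *Col1a2* and *Dcn* were named after their values were seen.

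Input and IP with the same number come from 1 biological replicate and are pairs for that reason. Their deviations from group means correlated at 0.195 to 0.28 over 13662 features. Alternatives were TMM, library size scaling, no filter, at least 10 counts in every library, genes only, DESeq2's Wald test, the adjusted p without the fold, a fit of the compared libraries only, the replicate block and leaving out each library.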

Additional observations from a re-analysis of the deposited data

Results flagged for a closer look

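In RNA-seq the libraries of *Dlk1* lay on opposite sides of their controls in the 2 knockouts. Both *Mettl14* KO libraries (15.0 and 10.7 normalized counts) lay above both WT26 libraries (8.14 and 3.22), while both *Mettl3* KO libraries (3.48 and 5.04) lay below both RBC libraries (19.5 and 10.8). The log2 difference of *Mettl14* KO against WT26 exceeded that of *Mettl3* KO against RBC by 2.91. This difference was not tested, since the genes were chosen on the second contrast, and it rests on 3 to 17 reads per library. *Dlk1* did not pass the test in *Mettl14* KO cells in RNA-seq (adjusted p = 0.0858 in edgeR), and in input its values overlapped, with 5.50 and 10.6 normalized counts in WT26 and 8.97 and 8.42 in *Mettl14* KO cells (log2 difference 0.19, adjusted p = 0.989).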

How the results depend on the processing

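Over single genes, 653 values stayed the same under an alternative, 31 lost the call, 9 gained it, 27 turned direction and 27 moved. In a tested comparison, staying the same meant keeping the direction and the side of the threshold. In a comparison without a test it meant staying within the standard error of the main value, and values beyond that were counted as moved. The RNA-seq changes of *Meg3*, *Rian*, *Mirg*, Gm26945, Gm37899 and *Dio3* in *Mettl14* KO cells kept direction and side of the threshold under all alternatives in which the gene was tested. With at least 10 counts in every library, most of the genes drop out, since *Mettl3* KO counts are low, and the number called or past the fold was 0 for RNA-seq of *Mettl14* KO (4 genes tested), 4 for RNA-seq of *Mettl3* KO (4 tested), 2 for input of *Mettl3* KO (2 tested) and 0 for enrichment in WT26 (2 tested). By the adjusted p alone, 6 genes were called in RNA-seq of *Mettl14* KO. The number enriched in RBC was 1 instead of 0 with library size scaling, with no filter and with a replicate block that pairs each input with its IP, the gene being *Dio3* each time. Leaving out 1 library gave 0 to 1 enriched genes in WT26 and 0 to 1 in *Mettl14* KO cells.

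Library size scaling moved the median log2 IP over input of all features by 0.454 in WT26, 0.492 in RBC and 0.451 in *Mettl14* KO cells, and turned *Meg3* to 0.20, 0.36 and 0.30, *Rian* in RBC to 0.042 and *Begain* in WT26 to 0.34, values at or below that shift. Under the pair block *Begain* in *Mettl14* KO cells was at -0.014, and with genes only at -0.039. TMM put the *Mirg* enrichment difference of *Mettl14* KO against WT26 at 0.027. The cause was not tested. Leaving out 1 library, log2 IP over input ranged for *Begain* from -0.55 to 0.47 in WT26, from -0.058 to 0.73 in RBC and from -0.76 to 0.48 in *Mettl14* KO cells, and for *Meg3* from -0.39 to 0.17 in RBC and from -0.43 to 0.13 in *Mettl14* KO cells. The enrichment difference of *Mettl14* KO against WT26 ranged from -0.20 to 0.34 for *Meg3*, from -0.084 to 0.16 for *Rian* and from -0.15 to 0.096 for *Mirg*, and the input difference from -0.96 to 0.066 for *Begain* and from -0.28 to 0.66 for *Dlk1*. The blocks on replicates changed no other call of these genes. Between lines, deviations of same-numbered libraries correlated at -0.0713 (RNA-seq of WT26 and *Mettl14* KO), 0.453 (RNA-seq of RBC and *Mettl3* KO) and 0.452 (input of WT26 and *Mettl14* KO), but the sources name no shared batch, and 2 numbers are too few to tell. The block on the replicate number over lines moved the calls over all features from 90 to 359 in input and from 2471 to 2464 in RNA-seq of *Mettl14* KO, and called 0 and 1 of these genes. With no filter on low counts 24, 25 and 7 features of 37871 differed in enrichment, for *Mettl14* KO against WT26, *Mettl3* KO against RBC and RBC against WT26. Leaving out 1 of 2 libraries assumes that the lone sample varies like the other groups. Low counts of *Dio3*, *Dlk1* and *Begain*, and of all genes in *Mettl3* KO cells, limit what the IP can show.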
